A study of Mus musculus with 9 samples.

Results

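The genes described here are 10 general markers of postmitotic neurons, Dcx, Tubb3, Elavl3, Elavl4, Stmn2, Rbfox3, Map2, Mapt, Nefl and Nefm, chosen by name from the 27360 rows of an expression table of the embryonic mouse midbrain. All 10 had a row, and all 10 passed the minimum on low values that left 14029 named genes for testing. The table came from poly-A selected RNA of midbrain tissue dissected at E13.5 from C57BL/6 embryos, with 3 libraries for each of 3 genotypes. The floxed control carried a loxP-flanked Gpr161 allele on both chromosomes and no Cre (Gpr161 f/f), the Cre control carried 1 floxed and 1 wild-type allele with the Wnt1-Cre transgene (Gpr161 f/+;Wnt1-Cre), and the cKO carried both floxed alleles with Wnt1-Cre (Gpr161 f/f;Wnt1-Cre). The gene encodes a G protein-coupled receptor of the primary cilium that restrains Sonic hedgehog signaling. Wnt1-Cre acts in cells with a history of the Wnt1 promoter, which include dorsal midbrain and neural crest, so that a dissected midbrain also holds cells in which the allele was not recombined. The cKO and the Cre control therefore share the transgene, and every genotype carries at least 1 floxed allele.

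A neuron that leaves the cell cycle replaces the cytoskeleton of a dividing progenitor with one built for a long axon and for dendrites. Doublecortin (Dcx) and the neuronal beta-tubulin Tubb3 appear about the time of the last division, as do the Hu proteins Elavl3 and Elavl4, which bind AU-rich messages, and Stmn2, a stathmin that regulates microtubule ends in growth cones. Map2 of dendrites, tau (Mapt) of axons, the splicing factor Rbfox3 (the NeuN antigen) and the light and medium neurofilament subunits Nefl and Nefm build up as neurons mature. The first 5 of these genes are called early and the last 5 late below, a division taken from general knowledge of their order of onset.

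Values are the log2 values of the table. The depth of the libraries is unknown because the table holds no read counts. The linear values summed to between 26609900 and 27496600 per library, and the median log2 value of the tested genes lay between 9.72 and 9.75. The labels number 3 samples per genotype without saying whether each is 1 embryo or a pool, so that p-values measure the spread between these samples, which may be technical. Gpr161 itself was not lower in the libraries labelled cKO, with log2 values of 11.77 ± 0.030 (SD, n = 3) in floxed controls, 11.88 ± 0.096 in Cre controls and 11.88 ± 0.12 in cKO. A gene has 1 value for all of its exons, the floxed one included, so this value does not check the genotypes, and the genotype names are those of the labels. Of 5 midbrain markers, En1, En2, Otx2, Pax7 and Pax5, all 5 passed the minimum, though Pax7 was called lower in cKO against floxed controls (−0.48, limma adjusted p = 0.00595) and Pax5 higher against both controls (0.56 and 0.39).

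The abundance of the 10 genes differed widely, and the libraries of Rbfox3, the lowest, reached down to 9.601, near the median of tested genes. In the floxed control the mean log2 value ran from 10.06 for Rbfox3 to 15.39 for Tubb3. The sources used here do not state whether the values are already divided by length. If they are not, levels of different genes can be compared only per length. The scale used here was the linear value per kb of the union of annotated exons. On that scale Tubb3 stood highest at 22988 in floxed controls, followed by Stmn2 at 3523, Mapt at 2467, Nefl at 2415, Dcx at 1760, Elavl3 at 1738, Map2 at 1679, Nefm at 1056, Elavl4 at 1002 and Rbfox3 at 184. Among neighbours in this order the ranges of the 3 floxed control libraries overlapped for Mapt and Nefl, for Dcx, Elavl3 and Map2, and for Nefm and Elavl4. With the longest transcript as the length, Map2 moved from rank 7 to rank 3 and Nefl from rank 4 to rank 6.

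The members lie on 8 chromosomes in GRCm38. Dcx is on the X chromosome (chrX:143855842-143933311, minus strand), Tubb3 on chromosome 8 (chr8:123411424-123422015, plus strand), Elavl3 on chromosome 9 (chr9:22015005-22052023, minus strand) and Elavl4 on chromosome 4 (chr4:110203722-110351909, minus strand). Stmn2 is on chromosome 3 (chr3:8509360-8561606, plus strand), Map2 on chromosome 1 (chr1:66175273-66442583, plus strand), and Rbfox3 (chr11:118489762-118911597, minus strand) and Mapt (chr11:104231390-104332090, plus strand) both lie on chromosome 11. Nefl (chr14:68083863-68089095, plus strand) lies inside the span of Nefm (chr14:68082590-68124846, minus strand) on chromosome 14. Nefl and Nefm share 1108 exon bases on opposite strands, which is 32.8% of the Nefl exons and 19.2% of the Nefm exons. Whether reads were assigned by strand is not given in the sources used here, so the values of this pair may share reads. Tubb3 is overlapped on its own strand by the gene model Gm20388 and Elavl3 by Gm49318, and their values are uncertain to that extent.

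Proneural and neuronal basic helix-loop-helix factors bind E-boxes, and 3 of their hexamers were searched on both strands in 300-base promoter windows from 250 bases before to 50 after each RefSeq start in GRCm38.p6. They are CAGCTG, which reads the same on both strands, CAGATG, which reads CATCTG on the other, and CAGGTG, which reads CACCTG. Of the 10 members, 6 had a window, with 10 windows in all, and Stmn2, Mapt, Nefl and Nefm had no entry. Elavl3, Elavl4 and Rbfox3 held a hexamer in at least 1 window. Among 32851 windows of this length, CAGCTG stood in 16.3%, CAGATG in 17.2%, CAGGTG in 20.2% and any of the 3 in 44.3%, so a match here is common and describes only the letters. The windows of the Hu genes Elavl3 (chr9:22051974-22052273, minus strand) and Elavl4 (chr4:110287478-110287777, minus strand, 1 of its 4 windows) are shown because they hold the most matches, which do not overlap each other, and that of Dcx (chrX:143933170-143933469, minus strand) because it holds none although Dcx had the largest difference between cKO and floxed control of the early members. Capitals mark the hexamers, and all are written 5′ to 3′ on the strand of the gene.
Elavl3 promoter: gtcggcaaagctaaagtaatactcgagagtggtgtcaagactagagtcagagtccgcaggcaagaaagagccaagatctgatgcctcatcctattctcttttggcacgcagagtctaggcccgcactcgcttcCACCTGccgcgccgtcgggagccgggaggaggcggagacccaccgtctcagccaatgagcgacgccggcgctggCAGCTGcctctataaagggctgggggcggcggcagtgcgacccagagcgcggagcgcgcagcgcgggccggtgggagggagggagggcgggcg
Elavl4 promoter: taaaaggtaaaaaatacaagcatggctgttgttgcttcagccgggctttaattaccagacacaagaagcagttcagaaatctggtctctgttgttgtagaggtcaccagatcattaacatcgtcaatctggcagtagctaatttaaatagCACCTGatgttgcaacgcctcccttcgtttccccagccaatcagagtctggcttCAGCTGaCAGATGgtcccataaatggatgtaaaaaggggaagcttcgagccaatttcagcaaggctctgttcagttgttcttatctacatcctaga
Dcx promoter: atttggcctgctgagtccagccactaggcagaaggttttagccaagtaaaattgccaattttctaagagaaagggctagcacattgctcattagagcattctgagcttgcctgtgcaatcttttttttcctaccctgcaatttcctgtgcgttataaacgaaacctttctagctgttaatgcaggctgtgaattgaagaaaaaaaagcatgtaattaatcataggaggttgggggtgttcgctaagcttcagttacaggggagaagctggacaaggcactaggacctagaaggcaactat

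Against the floxed control, all 10 genes were lower in cKO. In this comparison 18.8% of all tested genes were called lower, which means an adjusted p under 0.05 by limma with Benjamini-Hochberg adjustment over the 14029 genes. All 10 members were called lower, with log2 fold changes between −0.71 for Mapt and −0.20 for Elavl4 and a median of −0.46, beside a median of 0.011 over all genes tested. Mapt, Nefl and Dcx also passed a fold of 1.5, which 1.58% of all genes did in the lower direction. For all 10 genes, each of the 3 cKO libraries lay below each of the 3 floxed control libraries, an arrangement found in 27.3% of all genes. Fewer neurons and less RNA per neuron cannot be told apart in bulk tissue.

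**Figure D1:**
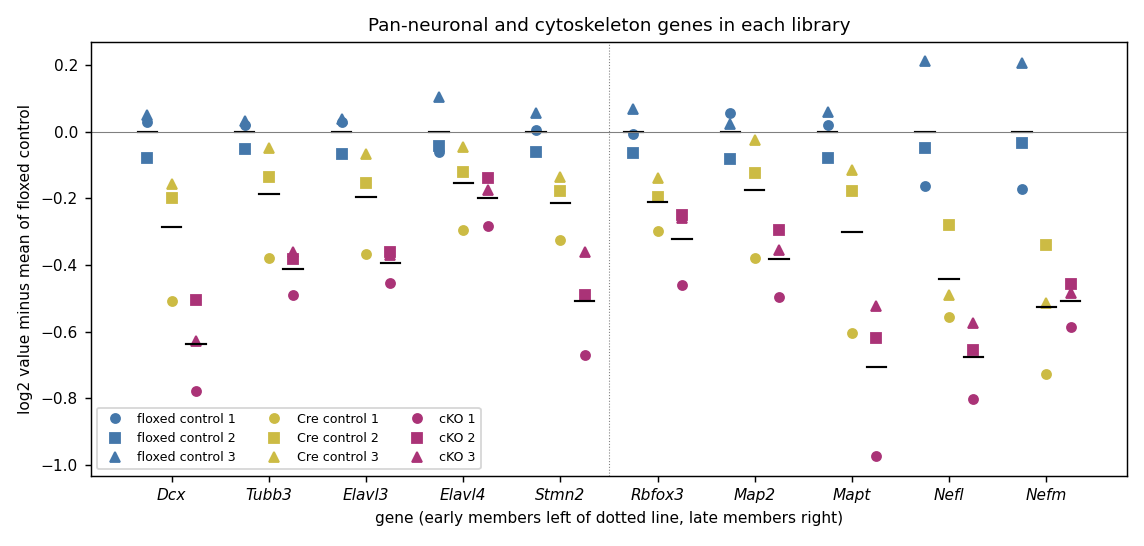
Log2 value of each of the 10 genes in each of the 9 libraries, minus the mean of the floxed control (vertical axis), by gene (horizontal axis), with colour for genotype, symbol for replicate number and a black bar for the group mean. All cKO points lie below all floxed control points, and replicate 1 of the Cre control is the lowest of its group for all 10 genes.

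Among the early genes, Dcx, which stabilizes microtubules in migrating neurons, had log2 values of 14.47, 14.36 and 14.49 in floxed controls, 13.93, 14.24 and 14.29 in Cre controls and 13.66, 13.94 and 13.81 in cKO. The cKO libraries were all below the floxed control, and 1 of them reached the lowest Cre control library. The log2 fold change of cKO against floxed controls was −0.64 (SE 0.096, limma adjusted p = 0.00125), a level 35.7% lower. Tubb3, the class III beta-tubulin, read 15.41, 15.34 and 15.42 in floxed controls, 15.01, 15.26 and 15.34 in Cre controls and 14.90, 15.01 and 15.03 in cKO. The difference from the floxed control was −0.41 (SE 0.080, limma adjusted p = 0.00359), and Cre control replicate 1 fell within the range of cKO. Stmn2 had values of 14.27, 14.21 and 14.33, then 13.94, 14.09 and 14.13, then 13.60, 13.78 and 13.91 in floxed control, Cre control and cKO. Its 3 groups did not overlap at all, the cKO level being lower by 29.6% than in floxed controls (log2 fold change −0.51, SE 0.078, limma adjusted p = 0.00135).

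Elavl3 and Elavl4 are closely related Hu genes. Elavl3, expressed throughout the neuronal lineage, had log2 values of 13.58, 13.48 and 13.59 in floxed controls, 13.18, 13.39 and 13.48 in Cre controls and 13.09, 13.19 and 13.18 in cKO, a log2 fold change of −0.40 against floxed controls (SE 0.071, limma adjusted p = 0.00249). Elavl4 had 12.34, 12.35 and 12.50 in floxed controls, 12.10, 12.28 and 12.35 in Cre controls and 12.11, 12.26 and 12.22 in cKO. The cKO libraries of Elavl4 lay inside the range of the Cre control. Its difference from the floxed control was the smallest of the 10 genes, −0.20 (SE 0.070, limma adjusted p = 0.0458). It was called in 7 of 17 alternative fits, whose adjusted p ran from 0.0103 to 0.166, and leaving out any of 7 libraries (all 3 of the floxed control, all 3 of cKO, and Cre control replicate 2) ended the call. Within each library the log2 difference Elavl4 minus Elavl3 was −1.15 ± 0.079 in floxed controls, −1.11 ± 0.027 in Cre controls and −0.95 ± 0.027 in cKO (SD, n = 3), and its cKO range did not overlap that of either control. The difference between these pairs was not tested.

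Among the late genes, Mapt, which encodes tau of axonal microtubules, had the largest difference. Its log2 values were 14.20, 14.10 and 14.24 in floxed controls, 13.58, 14.00 and 14.07 in Cre controls and 13.21, 13.56 and 13.66 in cKO. The cKO level was 38.7% lower than in floxed controls (log2 fold change −0.71, SE 0.14, limma adjusted p = 0.00351), with the widest interval of the 10 genes, from −1.01 to −0.40. Map2, the dendritic relative of tau, read 14.81, 14.67 and 14.78, then 14.37, 14.63 and 14.73, then 14.26, 14.46 and 14.40 in the same order of genotypes. Its log2 fold change was −0.38 (SE 0.089, limma adjusted p = 0.00804), and Mapt minus Map2 within a library went from −0.57 ± 0.037 in floxed controls to −0.70 ± 0.091 in Cre controls and −0.90 ± 0.15 in cKO. Rbfox3, the least abundant member, had values of 10.055, 9.998 and 10.130, then 9.763, 9.865 and 9.923, then 9.601, 9.812 and 9.803. The Rbfox3 libraries of cKO overlapped those of the Cre control only, and the log2 fold change against floxed controls was −0.32 (SE 0.068, limma adjusted p = 0.00520).

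The neurofilament genes, which encode subunits of the filaments that set axon calibre, were lower in cKO and also had lower values, which did not pass the test, in Cre controls. Nefl had log2 values of 12.83, 12.95 and 13.21 in floxed controls, 12.44, 12.71 and 12.50 in Cre controls and 12.19, 12.34 and 12.42 in cKO, with no overlap between any groups. Nefm had 12.40, 12.54 and 12.78, then 11.85, 12.23 and 12.06, then 11.99, 12.12 and 12.09, so that its cKO libraries all lay within the range of the Cre control. The log2 fold change of cKO against floxed controls was −0.68 for Nefl (SE 0.10, limma adjusted p = 0.00122) and −0.51 for Nefm (SE 0.11, limma adjusted p = 0.00505). Nefm minus Nefl within a library was −0.42 ± 0.011 in floxed controls, −0.50 ± 0.077 in Cre controls and −0.25 ± 0.067 in cKO, and the cKO range, −0.33 to −0.20, was above that of both controls. This difference was not tested, and the shared exon bases of the pair bear on it.

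Against the Cre control, 2 of the 10 genes were called lower in cKO, beside 4.85% of all genes. They were Dcx at −0.35 (SE 0.096, limma adjusted p = 0.0480) and Stmn2 at −0.29 (SE 0.078, limma adjusted p = 0.0443). No member passed the fold of 1.5, as 0.228% of all genes did. At an unadjusted p under 0.05, 7 members were lower, beside 1952 genes lower of the 14029 tested. The median over the 10 genes was −0.22, beside 0.012 over all genes tested, and 9 of the 10 were lower. Mapt had the largest difference, −0.41, with a 95% interval from −0.71 to −0.10 that did not pass the adjustment (limma adjusted p = 0.0853). Elavl4 at −0.046 (95% interval −0.20 to 0.11), Rbfox3 at −0.11 (−0.26 to 0.039) and Nefm at 0.019 (−0.22 to 0.26) had intervals that held 0. Only Stmn2 and Nefl had every cKO library below every Cre control library, as did 13.7% of all genes.

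These calls turned on single libraries. Replicate 1 of the Cre control was the lowest of its group in all 10 genes, as was replicate 1 of cKO. Without Cre control replicate 1, 6 members were called lower against Cre controls by limma, namely Dcx, Tubb3, Elavl3, Stmn2, Map2 and Mapt, with 1759 genes called lower among all 14029. Leaving out any other library gave 0 members called, except cKO replicate 3, without which 1 was called. Each of the 3 floxed control libraries had this effect too, since all 9 libraries share the estimate of spread. In the full fit 681 of all genes were called lower. The counts over all genes without these other libraries are not given here, so a loss of calls particular to the members cannot be read from them. What sets Cre control replicate 1 apart was not tested. Its summed midbrain marker level, 15313 in linear values, was the highest of the 9 libraries, and its summed progenitor marker level, 88244, was the highest of the 6 controls. Of the progenitor markers, Fabp7 (log2 14.85 beside 14.47 and 14.47) and Hes5 (11.93 beside 11.59 and 11.75) were highest there within the Cre control. Sox2, Hes1, Slc1a3, Nes and Vim were not. Its summed mesenchyme marker level, 34699, was the lowest of the Cre control, beside 58444 and 50264. Replicates 2 and 3 of the Cre control differed from the other libraries in summed forebrain marker level, at 168 and 303 beside 98.7 to 118 in the other 7.

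**Figure D2:**
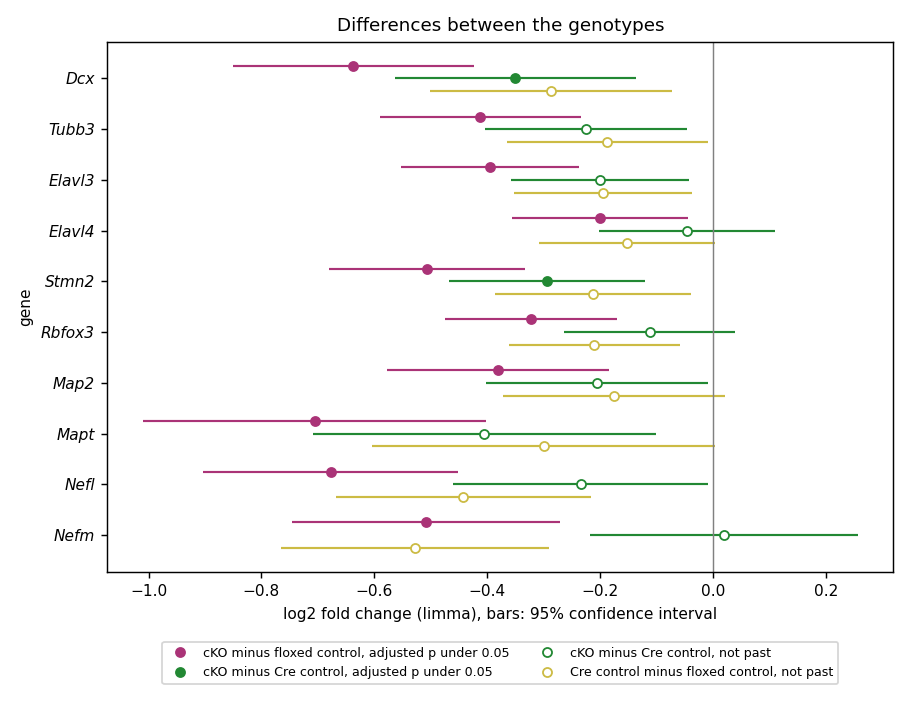
Log2 fold change (horizontal axis) of each gene (vertical axis) in the 3 comparisons, from limma on 9 libraries, with bars for 95% confidence intervals and filled points for an adjusted p under 0.05. All 10 points of cKO against floxed controls are filled, 2 against Cre controls (Dcx and Stmn2), and 0 of the Cre control against floxed controls.

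Between the controls no member passed the test. The Cre control was below the floxed control in mean for all 10 genes, with a median of −0.21 beside −0.0010 over all genes tested. In this comparison 0.057% of all genes were called in either direction, and 0 members were called by limma at an adjusted p under 0.05. At an unadjusted p under 0.05, 7 members were lower, beside 1220 genes lower of the 14029 tested. In either direction 17.5% of all genes passed that limit. Nefm at −0.53 (SE 0.11, limma adjusted p = 0.139) and Nefl at −0.44 (SE 0.10, limma adjusted p = 0.145) had the largest differences, and the other 8 lay between −0.30 and −0.15. For Dcx, Stmn2, Rbfox3, Mapt, Nefl and Nefm, all 3 Cre control libraries lay below all 3 floxed control libraries, as they did for 12.1% of all genes. The comparisons share libraries, so the cKO difference from each control is not independent of the difference between the controls.

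Markers of peripheral and motor neurons, and Hox genes of the hindbrain, are given beside the neurofilament values. Peripherin (Prph), an intermediate filament of peripheral and some motor neurons, had log2 values of 8.152, 8.673 and 8.998 in floxed controls, 8.025, 7.924 and 7.812 in Cre controls and 7.672, 7.864 and 7.792 in cKO. Its difference was −0.83 for cKO against floxed controls (limma adjusted p = 0.00448) and −0.69 for the Cre control against floxed controls (limma adjusted p = 0.145). Of 5 sensory neuron markers 4 were tested, Scn10a being below the minimum. The summed linear level of all 5 was 1060 to 1367 in floxed controls, 940 to 1007 in Cre controls and 730 to 802 in cKO. All 4 tested genes were called lower against floxed controls and 2 against Cre controls, beside 18.8% and 4.85% of all genes. The summed level of 6 motor neuron markers was 643 to 877, 536 to 722 and 464 to 547 in the 3 genotypes. That of 5 hindbrain Hox genes was 238 to 425, 163 to 218 and 186 to 192. These sums include Chat and Hoxb4, which were below the minimum and were not tested. Of the 5 tested motor neuron markers, 2 were called lower against floxed controls. Of the Hox genes, Hoxa2, Hoxb2 and Hoxb3 were called lower against floxed controls, and Hoxa3 at 0.18 was not. Against Cre controls 0 motor neuron markers and 0 Hox genes were called by limma. No gene of these lists was at 0 in every library. The part of peripheral, motor or hindbrain cells in the Nefl and Nefm values was not tested.

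Several lists of markers of other cells were higher in cKO. The summed level of 7 progenitor markers was 81308 to 85392 in floxed controls, 81070 to 88244 in Cre controls and 93782 to 96839 in cKO, and 5 of the 7 were called higher against floxed controls and 3 against Cre controls, beside 19.5% and 4.86% of all genes. The latter count became 1 when cKO replicate 1 was dropped, 2 when replicate 2 of cKO or replicate 2 or 3 of the Cre control was, and 4 when Cre control replicate 1 was. The progenitor markers Fabp7 and Slc1a3 were lower in cKO than in floxed controls, at −0.16 and −0.12, and were not called. Without Cre control replicate 1, 1 progenitor marker was called lower against floxed controls by limma. Mesenchyme markers summed to 27510 to 50368, 34699 to 58444 and 59962 to 62333, with 5 of 6 called higher against floxed controls and 0 of 6 against Cre controls by limma. Erythroid markers summed to 100555 to 164906, 119409 to 139931 and 144394 to 296638, with 4 of 6 and 1 of 6 called higher. Endothelial markers summed to 4843 to 6285, 5208 to 6724 and 6252 to 6736, and microglial markers to 1856 to 2183, 2034 to 2225 and 2162 to 2387, with 1 of 5 and 0 of 5 called higher against floxed controls, and 0 of either against Cre controls, by limma. The 10 neuronal genes together summed to 156635 to 170675, 121678 to 151523 and 107693 to 122494. The part of these cells in the neuronal values was not tested.

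**Figure D3:**
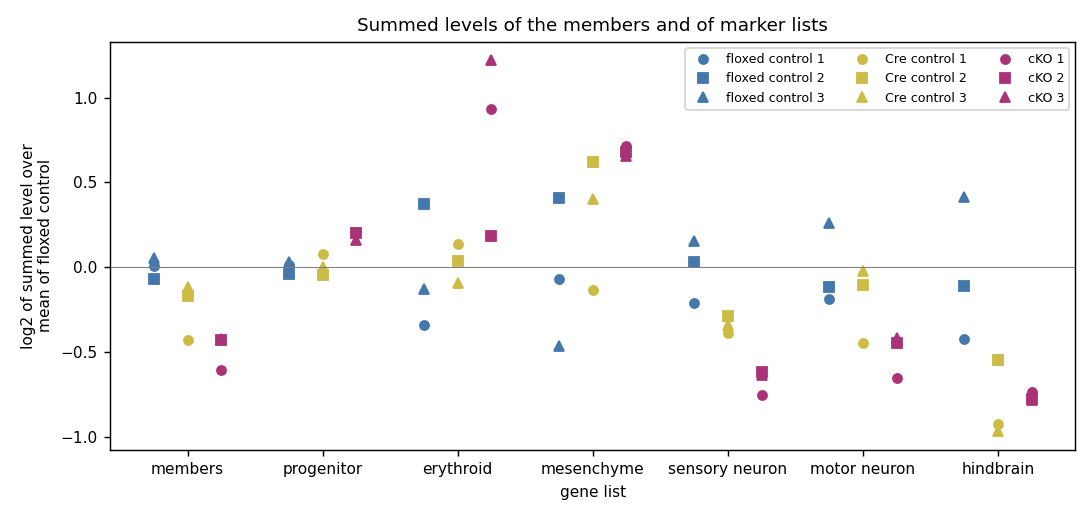
Summed linear level of the 10 genes and of 6 marker lists in each of the 9 libraries, as log2 over the mean of the floxed control (vertical axis), by list (horizontal axis), with colour for genotype and symbol for replicate. The members, sensory neuron, motor neuron and hindbrain lists lie lower in cKO than in floxed controls, while the progenitor list lies higher.

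Both early and late genes were lower in cKO. The mean log2 value of the 5 early genes was 14.01 ± 0.059 in floxed controls, 13.80 ± 0.15 in Cre controls and 13.58 ± 0.091 in cKO (SD, n = 3). That of the 5 late genes was 12.91 ± 0.099, 12.58 ± 0.16 and 12.39 ± 0.13. Late minus early within a library was −1.15, −1.10 and −1.04 in floxed controls, −1.23, −1.16 and −1.26 in Cre controls and −1.22, −1.18 and −1.16 in cKO. The cKO libraries were below the floxed control in each case, but narrowly, at −1.1554 in cKO replicate 3 beside −1.1536 in floxed control replicate 1. The mean difference was −0.089, and the cKO libraries overlapped the Cre control. The median log2 fold change of cKO was −0.41 for the early and −0.51 for the late genes against floxed controls, and −0.22 and −0.21 against Cre controls. The Cre control against floxed controls gave medians of −0.19 and −0.30. The late minus early difference depended on the members of the sets, since without Nefl and Nefm it was −0.040 for cKO against floxed controls and with Elavl4 among the late genes it was 0.022. No test was made of it.

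**Figure D4:**
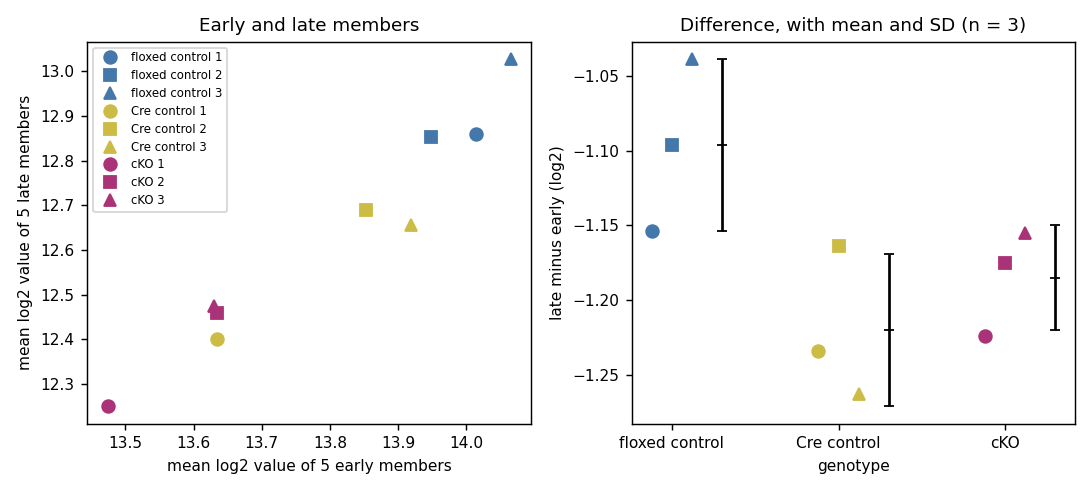
Left, mean log2 value of the 5 late genes (vertical axis) against that of the 5 early genes (horizontal axis) in each of the 9 libraries; right, late minus early in log2 (vertical axis) by genotype (horizontal axis), with black bars for the mean and SD of 3 libraries. Both means are lower in the cKO libraries than in floxed controls, and late minus early spans −1.26 to −1.04 over the 9 libraries.

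The order of the 10 genes by size of change was not well resolved. In cKO against floxed controls, 8 of 9 neighbours in that order differed by less than the standard error of their difference, the exception being Rbfox3 and Elavl4, and in each of the other comparisons 9 of 9 did. Over the 9 libraries, each gene centred on its own mean, Tubb3 came closest to the mean profile of the 10 genes, with a root mean square difference of 0.049 on the log2 scale, and Nefm was farthest at 0.14. The 5 other genes whose profile was most like the mean of the 10 were Pak7, at 0.028, Cadps and Pcdha5, both at 0.033, Nap1l2 at 0.036 and Cbarp at 0.037. Their log2 fold changes of cKO against floxed controls ran from −0.54 for Nap1l2 to −0.45 for Cbarp.

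Relatives of the 10 genes were grouped by where they are expressed. Over 6 lists of neuronal genes with 48 members, 43 were called lower in cKO against floxed controls, with a median of −0.45, and 12 against Cre controls, with a median of −0.22. Over 4 lists of broadly expressed and progenitor relatives with 18 genes, 9 were called higher and 2 lower against floxed controls, with a median of 0.13, and 8 were called higher and 0 lower by limma against Cre controls, with a median of 0.12. Among all genes, 18.8% were called lower and 19.5% higher against floxed controls, and 4.85% lower and 4.86% higher against Cre controls. The lists were chosen with earlier results of these data known, so the counts describe only the listed genes. None of these genes was called between the controls by limma. Without Cre control replicate 1, 41 of the 48 neuronal genes were called lower against Cre controls, and without any other library between 1 and 14. It was 1 without Cre control replicate 3 or cKO replicate 1, and 2 without Cre control replicate 2 or cKO replicate 2. It was 4 without floxed control replicate 1 and 6 without floxed control replicate 3. Over all genes the count called lower without Cre control replicate 1 rose too, as given above. Counts over all genes without the other libraries are not given here, which limits the like counts of the single lists too. The count of broad and progenitor genes called higher against Cre controls ran from 2 to 7 when a library was left out, reaching 2 without Cre control replicate 3 or cKO replicate 1. It was 5 without floxed control replicate 1, floxed control replicate 3 or Cre control replicate 2, and 4 without cKO replicate 2.

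Among tubulins, the neuronal isotypes Tuba1a, Tubb2a, Tubb2b and Tubb4a were all called lower against floxed controls, with a median of −0.30, and 0 of the 4 were called against Cre controls by limma. Of 6 broadly expressed tubulins 5 were called higher against both controls. Over all genes, 18.8% were called lower and 19.5% higher against floxed controls, and 4.85% and 4.86% against Cre controls. Tubb6 rose by 0.67 against floxed controls and by 0.34 against Cre controls, and Tuba1c by 0.51 and 0.30. Tubb4b rose by 0.33 and 0.26 (limma adjusted p = 0.00676 against Cre controls), with log2 values of 12.69 to 12.77 in cKO above 12.37 to 12.49 in the 6 controls. Tuba1b and gamma-tubulin (Tubg1) rose too, while Tubb5 differed by −0.036 and 0.044 without passing the test. Against floxed controls the count was 5 whichever library was left out, while against Cre controls it ran from 1, without Cre control replicate 3 or cKO replicate 1, to 4, without Cre control replicate 1, and was 2 or 3 without any of the other 6. Some tubulin genes of the same family are near-identical in their coding sequence, so that values of such isotypes may share reads.

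Of 13 neuronal microtubule-associated genes, 10 were called lower against floxed controls and 1, Stmn3, against Cre controls. Over all genes the shares called lower were 18.8% and 4.85%. Stmn3, a relative of Stmn2, fell by 0.48 against floxed controls and by 0.27 against Cre controls in log2. Its relative Stmn4 fell by 0.47 against floxed controls, and Dclk1, a kinase relative of doublecortin, by 0.46. Map1a at −0.081, Map1b at −0.33 and Dpysl4 at −0.079 did not pass the test. Of 5 broadly expressed relatives only Stmn1, a stathmin also used by dividing cells, was called, at −0.27 against floxed controls, and Map4 at −0.10 was not. Of 7 axonal motor genes, 6 were called lower against floxed controls, with a median of −0.48, and 1 against Cre controls, the kinesin Kif3c, which fell by 0.44 and 0.26. Kif21a differed by 0.034 and was not called.

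The remaining neuronal subunits Nefh at −0.32, Ina (alpha-internexin) at −0.55 and Prph at −0.83 were called lower against floxed controls, and 0 of the 3 were called against Cre controls by limma. Nestin (Nes) and vimentin (Vim), the filaments of neural progenitors, were called higher against both controls. Nes had log2 values of 14.00, 13.95 and 13.94 in floxed controls, 13.97, 13.90 and 14.16 in Cre controls and 14.53, 14.45 and 14.39 in cKO, all cKO libraries above all controls. It rose by 0.50 against floxed controls (limma adjusted p = 0.000783) and by 0.45 against Cre controls (limma adjusted p = 0.00749). Vim rose by 0.31 and 0.24. Against Cre controls 1 of the 2 was called without Cre control replicate 3, cKO replicate 1 or cKO replicate 2. Both are also among the progenitor markers above.

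The RNA-binding relatives of Elavl3, Elavl4 and Rbfox3 form the next list. All 10 neuronal genes of this kind were called lower against floxed controls, with a median of −0.44, beside 18.8% of all genes. Against Cre controls 7 of 10 were called lower, with a median of −0.27, beside 4.85% of all genes. The first count was 10 whichever library was left out. The second was 9 without Cre control replicate 1, 6 without cKO replicate 3, 4 without floxed control replicate 2 or 3, 3 with floxed control replicate 1 dropped, 2 with replicate 2 of either the Cre control or cKO dropped, and 1 without Cre control replicate 3 or cKO replicate 1. Rbfox1, which like Rbfox3 regulates splicing through the UGCAUG element, had log2 values of 10.73, 10.61 and 10.75 in floxed controls, 10.14, 10.48 and 10.58 in Cre controls and 9.71, 9.94 and 10.01 in cKO. It fell by 0.81 and 0.52 (limma adjusted p = 0.0237 against Cre controls), with no overlap between groups. Celf5 fell by 0.73 and 0.45, Khdrbs2 (SLM1) by 0.62 and 0.40, Celf4 by 0.58 and 0.35, Nova1 by 0.47 and 0.28, the Hu gene Elavl2 by 0.40 and 0.25, and Celf3 by 0.32 and 0.17. Of 5 broadly expressed relatives, Ptbp1, the splicing repressor of progenitors, rose by 0.44 and 0.27 and was called against both controls. The ubiquitous Hu gene Elavl1 rose by 0.32 against floxed controls, and at 0.15 it was not called against Cre controls. Rbfox2, which is also expressed in neurons, fell by 0.40 against floxed controls.

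**Figure D5:**
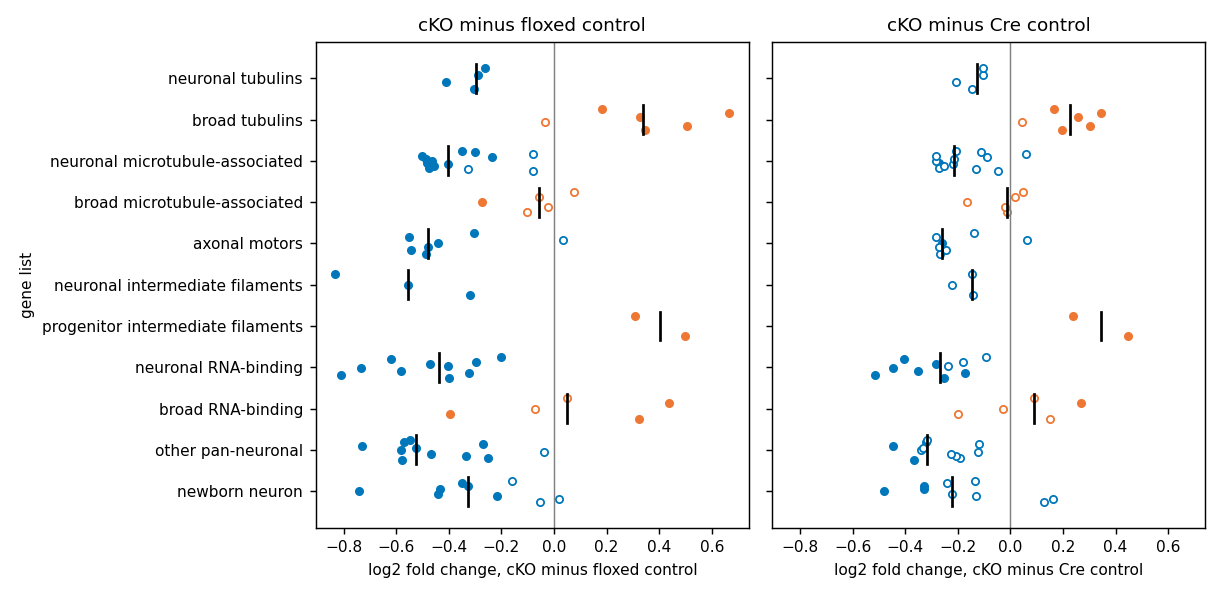
Log2 fold change (horizontal axis) of each gene in 11 lists (vertical axis), against floxed controls on the left and the Cre control on the right, with filled points for a limma adjusted p under 0.05, blue for neuronal lists, orange for broad and progenitor lists and a black bar for the list median. Neuronal medians lie between −0.55 and −0.30 on the left, those of broad tubulins and progenitor filaments at 0.34 and 0.40. Those of broad microtubule-associated and broad RNA-binding genes lie at −0.059 and 0.051 on the left.

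Of 11 other pan-neuronal genes, 10 were called lower against floxed controls, with a median of −0.52, and 3 against Cre controls. Over all genes the shares called lower were 18.8% and 4.85%. The growth cone protein gene Gap43 fell by 0.58 and 0.37, the adhesion molecule gene L1cam by 0.73 and 0.45 and the synaptic vesicle fusion gene Snap25 by 0.57 and 0.32. Without Cre control replicate 1, 9 were called against Cre controls, and 0 by limma if replicate 2 or 3 of the Cre control was dropped, or replicate 1 or 2 of cKO. The count was 1 without floxed control replicate 1 and 2 without floxed control replicate 2 or 3. Thy1, which appears late in many projection neurons, differed by −0.037 and was not called. Of 9 genes of newborn neurons, 6 were called lower against floxed controls and 3 against Cre controls, where Ebf3 fell by 0.48, Igfbpl1 by 0.33 and Myt1 by 0.33. The latter count became 5 when Cre control replicate 1 was dropped, and 1 when Cre control replicate 3 or cKO replicate 1 was. Nhlh1 at −0.054 and Nhlh2 at 0.020, basic helix-loop-helix factors of newly born neurons, were not called against floxed controls, and against Cre controls they stood at 0.13 and 0.16 without passing the test.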

How the data were processed

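Per the labels and the study's methods, poly-A libraries were made with NEBNext Ultra RNA. In the 1 table that the authors deposited are log2 values, which their distribution shows to be scaled to like library sums and drawn together where expression is low. The submitters' processing notes name FastQC 0.10.1, kallisto 0.46.1, DESeq2 and mm10, without a role or order. Of 27360 rows, 5764 had no name and held between 0.334% and 0.396% of the linear sum.

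Named genes whose linear values reached 1 cpm in at least 3 libraries were kept (14029). limma 3.58.1 in R 4.3.3 (lmFit, contrasts.fit, eBayes with a trend) was fitted to all 9 libraries with a mean per genotype, giving two-sided moderated tests adjusted by Benjamini-Hochberg. The fit was tested on simulated data. Positions are from the GENCODE annotation of GRCm38. Named were the 10 members, genes of fixed lists and the 5 most similar profiles. The members and lists were chosen with earlier results of these data known. Alternatives were other filters, scalings, designs and thresholds and leaving out each library. Those on the lists were chosen after seeing the data. No column was left unused. Protein sequences were not used here. Some marker genes are not reported here.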

Additional observations from a re-analysis of the deposited data

How the results depend on the processing

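Over 17 alternatives, 9 or 10 members were called lower in cKO against floxed controls, with 9 called in every alternative and Elavl4 the exception, and 0 members were called between the controls. Against the Cre control, where 2 members were called, 0 were called with only the 6 libraries compared, with no filter on low values, with eBayes without a trend or at an adjusted p under 0.01, and 5 with quantile normalization. Leaving out 1 library at a time gave between 0 and 6. Neuronal list genes called lower against Cre controls, 12 in the report, numbered 1 with only the 6 libraries, 5 with no filter and 1 at an adjusted p under 0.01, and between 1 and 41 with a library left out. Between the controls the latter gave 0 or 1. Broad and progenitor genes called higher against Cre controls, 8 in the report, numbered 4 with only the 6 libraries, 5 with no filter and 2 at an adjusted p under 0.01, and between 2 and 7 with a library left out. The smaller samples, larger gene set and stricter threshold are part of these alternatives, and the cause was otherwise not tested.

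With the replicate number as a replicate block, 10, 3 and 0 members were called in the 3 comparisons (cKO against floxed control, cKO against Cre control, Cre control against floxed control), and 19 neuronal list genes against Cre controls. The numbers were not taken as pairs. Residuals of same-numbered libraries correlated between −0.027 and 0.26, and 4 of 9 libraries correlated best with their own number.

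Of 510 member fold changes under alternatives, 466 kept their direction and side of the threshold, 33 lost and 8 gained the call, and 3 reversed. These were Elavl4 in cKO against Cre controls, which ran from −0.117 to 0.0082, the latter without Cre control replicate 3, and Nefm, which ran from −0.081 to 0.112 with a library left out and was below 0 lacking Cre control replicate 1 or cKO replicate 2 (−0.0075). Neither gene was called there. Late minus early was −0.089 for cKO against floxed controls, and became −0.138 without Rbfox3, −0.040 without Nefl and Nefm, 0.022 with Elavl4 among the late genes and −0.139 with medians. Against the Cre control it was 0.035, and −0.018 without Nefl and Nefm, 0.103 with Elavl4 among the late genes and 0.0875 with medians. Between the controls it was −0.12, and −0.022 without Nefl and Nefm and −0.227 with medians. Depth is unknown, so a limit from counts could not be set.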
